A study of Sus scrofa with 12 samples.

Results

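KRT80 and GPC5 were followed through back subcutaneous fat and longissimus dorsi (LD) muscle of Dingyuan sows, a native Chinese pig breed. They are 2 of the 31903 gene identifiers in the expression table. They were chosen from measured values, because the change between high-fat and low-fat animals differed most between the tissues for these genes once each difference was divided by its standard error. Their values in that comparison are therefore given as a description and carry no test.

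All sows were 300 days old, and no treatment or genetic change is named for any of them. The 12 libraries fell into 4 groups of 3. LBF and HBF are back fat of sows with low and with high backfat, and LIMF and HIMF are LD muscle with low and with high intramuscular fat. The sources used here do not state whether a fat library and a muscle library came from the same sow, and p-values measure the spread between these libraries. Expression is given as FPKM, the number of sequenced fragments scaled to transcript length and library size, which allows levels of different genes to be set side by side. Differences are given on the scale log2(FPKM + 0.1), where 0.1 is a constant added so that values of 0 can be used, and this understates differences of genes at low level.

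KRT80 encodes a type II keratin. Keratins build intermediate filaments, the tough cytoskeletal fibres of epithelial cells, from pairs of a type I and a type II chain, and the protein of KRT80 is known from desmosomes and the cell margin of epithelia. GPC5 encodes a glypican, a heparan sulfate proteoglycan held at the outer cell surface by a lipid anchor. Glypicans bind growth factors such as fibroblast growth factors (FGFs) and Hedgehog ligands and alter how these reach their receptors.

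In the RefSeq annotation of Sscrofa11.1, the build named for the data, KRT80 spans 24009 bases at chr5:17482454-17506462 and has 3 RefSeq transcripts. GPC5 spans 1358912 bases at chr11:60791000-62149911 and also has 3. The values are 1 per gene, so transcripts and exons were not separated. A long non-coding RNA gene, LOC106505326, and a pseudogene, LOC110255762, lie inside the span of GPC5. Another long non-coding RNA gene, LOC110260840, ends 3702 bases from KRT80. Strand-specific counting is not stated in the sources used here, so reads from genes that share positions with GPC5 cannot be told apart from its own.

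The libraries detected 18503 to 19274 identifiers above 0 FPKM in back fat and 16368 to 17211 in LD muscle. The number of fragments behind a value is unknown, because the table holds no counts. Some exact zeros go against the tissue: GAPDH was listed at 0 in LIMF2 and between 10393 and 17506 FPKM in the other muscle libraries, and ACTA1, the main actin of skeletal muscle, was listed at 0 in all LIMF libraries and in HIMF1. In all, 17 genes were at 0 in a library and above 1000 FPKM in another. A value of 0 is therefore given only as listed. LBF3 stood apart from the other fat libraries by its muscle transcripts, and values without it are given with the cell type markers. These genes were singled out after their values were seen.

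KRT80 was low in lean back fat, with 0.0676, 0.0520 and 0.0669 FPKM in LBF1, LBF2 and LBF3. It stood at 0.279, 0.613 and 0.403 FPKM in the HBF libraries. All 3 HBF libraries were above all 3 LBF libraries, the lowest HBF value being 4.13 times the highest LBF value. The group means were 0.0621 ± 0.00879 (SD, n = 3) in LBF against 0.432 ± 0.169 in HBF, a ratio of 6.95.

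In LD muscle the order was the opposite. KRT80 stood at 1.49, 4.80 and 1.37 FPKM in LIMF against 0.143, 0.212 and 0.127 FPKM in HIMF. Every LIMF library was above every HIMF library, the lowest LIMF value being 6.49 times the highest HIMF value. The means were 2.56 ± 1.94 (SD, n = 3) and 0.161 ± 0.0448, a ratio of 15.9. LIMF2 stood above the other LIMF libraries, and without it the ratio was 8.91.

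Ordered by FPKM, KRT80 ran LBF, HIMF, HBF and LIMF, and no neighbours in this order overlapped. The gap between the nearest libraries was narrowest from HIMF to HBF, the lowest HBF value being 1.32 times the highest HIMF value. The order of HIMF and HBF depended on the scaling of the libraries: HIMF minus HBF was -0.99 on the log2 scale as deposited, -0.23 by median of ratios and 0.30 by quantile normalization. On the log2 scale HBF minus LBF was 1.67 (SE 0.32) and HIMF minus LIMF was -3.13 (SE 0.48). The muscle change minus the fat change was -4.79 (SE 0.60), the 1st of 15965 genes when divided by its standard error and the 12th by absolute size. Without LIMF2 the muscle change was -2.57 and the difference between tissues -4.23.

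GPC5 had the contrary course in back fat. It stood at 2.77, 2.56 and 2.16 FPKM in LBF against 0.565, 0.410 and 0.534 FPKM in HBF. The groups did not overlap, and the lowest LBF value was 3.82 times the highest HBF value. The means were 2.49 ± 0.307 (SD, n = 3) in LBF against 0.503 ± 0.0819 in HBF, so that LBF was 4.96 times HBF.

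In LD muscle GPC5 was listed at 0 in all 3 LIMF libraries and in HIMF1 and HIMF2. Only HIMF3 had a value, 0.0311 FPKM, and the lowest back fat value was 13.2 times as large. The mean in muscle was under the minimum of 0.05 FPKM used for testing, so no muscle change was fitted there. The fat change on the log2 scale was -2.11 (SE 0.23). Over all 12 libraries the muscle change minus the fat change was 2.24 (SE 0.33), the 2nd of 15965 genes when divided by its standard error and the 188th by absolute size. How much of it comes from muscle depends on the constant added, since 5 of the 6 muscle values are listed zeros: with 0.01 added the difference was 2.97 and the fat change -2.29.

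**Figure D1:**
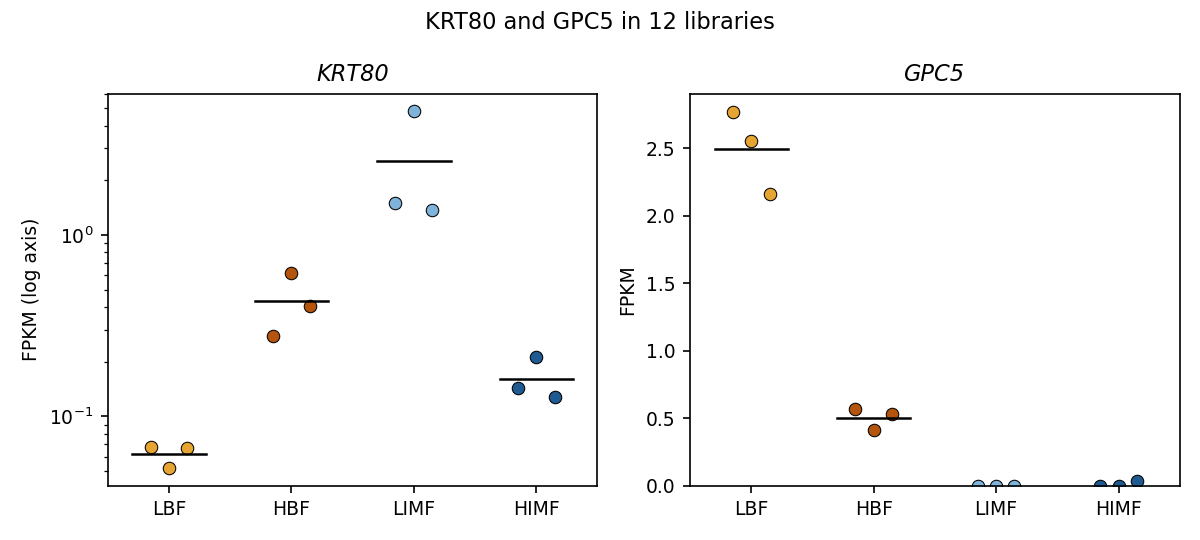
FPKM of KRT80 (left, log axis) and GPC5 (right, linear axis) in each library of LBF, HBF, LIMF and HIMF. Points are libraries and bars are group means, drawn where more than 1 library is above 0. KRT80 is highest in LIMF, at 1.37 to 4.80, and lowest in LBF, while GPC5 is highest in LBF, at 2.16 to 2.77, and listed at 0 in 5 of 6 muscle libraries.

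By difference over standard error, PPP1R1A came next with a muscle minus fat difference of 1.96 (SE 0.29), then PFKFB1 with 4.08 (SE 0.63) and FASN with 3.45 (SE 0.54). These 3 were picked after their values were seen. By absolute difference, KRT80 was followed by the named genes ATP8 at -4.71 (SE 1.98), WDR6 at 4.61 (SE 0.996) and EIF1AY at -4.48 (SE 3.10). GPC5 was followed by CPEB2 at -2.23 (SE 1.15), CHRNA9 at -2.23 (SE 0.92) and GADL1 at 2.22 (SE 0.77). Each of these 6 ranked by absolute difference had a larger standard error than the member it followed.

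Across all genes, the high-low comparisons gave no call at the limits used, an adjusted p under 0.01 with at least 1 unit of log2 change. By limma with Benjamini-Hochberg adjustment 0% of 16239 genes passed in back fat and 0% of 14292 in LD muscle. In back fat 2206 genes (13.6%) had an unadjusted p under 0.05, and in LD muscle 1004 (7.02%) had. For the difference between tissues, 0% of 15965 genes passed an adjusted p under 0.05 by limma, and 1628 (10.2%) had an unadjusted p under 0.05. Groups without overlap were common, at 20.4% of genes in back fat and 12.7% in LD muscle. Higher in HBF and lower in HIMF, both without overlap, as KRT80 was, applied to 107 genes (0.67%).

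**Figure D2:**
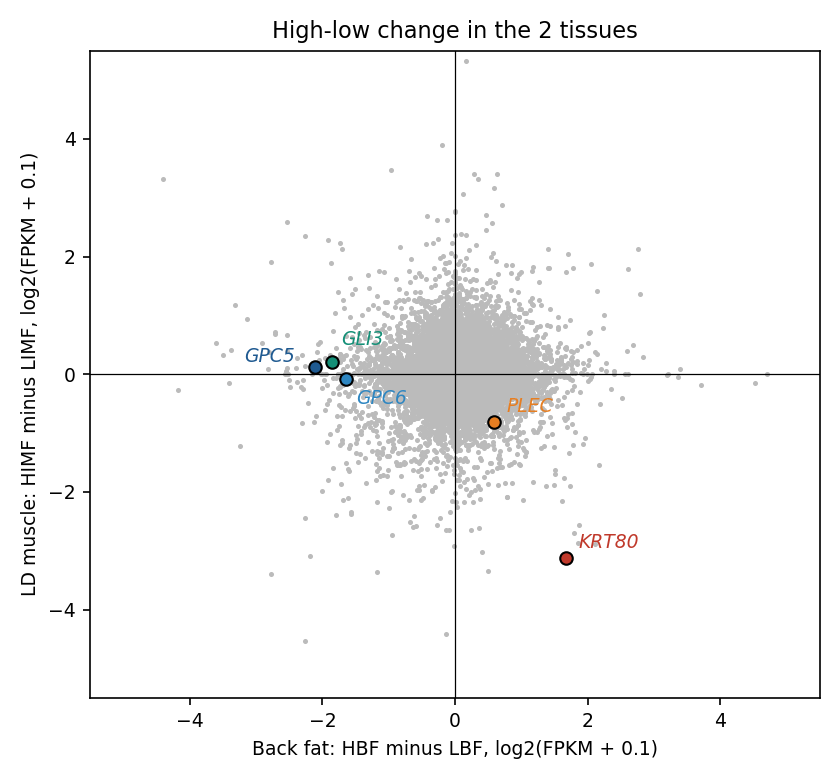
HBF minus LBF in back fat (horizontal axis) against HIMF minus LIMF in LD muscle (vertical axis), as differences of group means of log2(FPKM + 0.1). Grey points are 15955 of the 15965 genes tested, the other 10 lying beyond the axes. KRT80 at 1.67 and -3.13 lies far toward the lower right, PLEC lies in the same part of the plot nearer the centre, and GPC5, GPC6 and GLI3 lie to the left close to the horizontal line.

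Between the tissues, the values of both genes are likewise a description, because their choice by difference over standard error used the same spread between libraries. For GPC5 muscle minus fat was -3.57 on the log2(FPKM + 0.1) scale, with 5 of the 6 muscle libraries listed at 0, so this size rests on the constant added. Across all genes 56.4% of all genes passed the limits, 47.1% as lower in muscle and 9.29% as higher. Fat and muscle libraries did not overlap for 59.6% of genes, of which those lower in muscle made up 49.3% of all genes and those higher 10.4%. The median over all genes was -0.97, and this general shift was -0.15 or -0.10 under other scalings of the libraries. Genes of a tissue can be low because fewer cells of a type are present or because each cell holds less of their RNA, and in bulk samples these cannot be told apart.

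For KRT80 muscle minus fat was 1.40 (SE 0.30) on the same scale, 2.13 by median of ratios, 2.45 by quantile normalization and 0.66 with 1 FPKM added in place of 0.1. The libraries overlapped, ranging from 0.0520 to 0.613 FPKM in fat and from 0.127 to 4.80 in muscle. The mean of LIMF was 41.1 times that of LBF, or 23.1 times without LIMF2. The mean of HBF was 2.68 times that of HIMF as deposited, the step that turned under quantile normalization.

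Among the other glypicans, GPC6 was the one that also separated LBF from HBF. Of all genes 20.4% separated these groups, 6.46% as lower in HBF. A gene is said to have a row here if its symbol was matched to an identifier, as for 15027 of the 31903 identifiers. Genes without a match were not looked up. GPC6 is the next gene with a row after GPC5, 286232 bases further along chromosome 11. It stood at 10.99, 4.17 and 5.48 FPKM in LBF against 0.967, 2.56 and 2.93 in HBF. The groups did not overlap, and HBF minus LBF was -1.65 (SE 0.49, unadjusted p = 0.0122, adjusted p = 0.279 by limma), which does not pass the limits. In LD muscle GPC6 was between 0.0219 and 0.234 FPKM in every library, with LIMF and HIMF overlapping. Muscle minus fat was -4.13 (SE 0.36, adjusted p = 5.85e-07 by limma).

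The remaining glypicans overlapped between LBF and HBF. GPC3, known as a brake on Hedgehog signalling, was the most abundant, at 89.3 to 132 FPKM in LBF against 65.3 to 121 in HBF. In muscle it stood at 6.26 to 8.01 FPKM, and muscle minus fat was -3.80 (SE 0.16, adjusted p = 1.76e-09 by limma). GPC1 was the opposite, at 5.76 to 17.3 FPKM in fat and 20.5 to 36.9 in muscle, a difference of 1.33 (SE 0.24, adjusted p = 0.000291 by limma) that was 2.37 by median of ratios and 1.85 by quantile normalization.

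GPC4 stood at 1.68, 4.39 and 2.36 FPKM in LIMF against 1.45, 1.36 and 1.67 in HIMF. It was lower in HIMF just without overlap, as 4.74% of all genes were, with a log2 change of -0.76 (SE 0.35, adjusted p = 0.719 by limma). GPC2 did not exceed 0.200 FPKM in any library. All 6 glypicans had a row. Apart from GPC5, 2 passed the limits as lower in muscle (GPC3 and GPC6) and 1 as higher (GPC1), beside 47.1% and 9.29% of all genes.

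**Figure D3:**
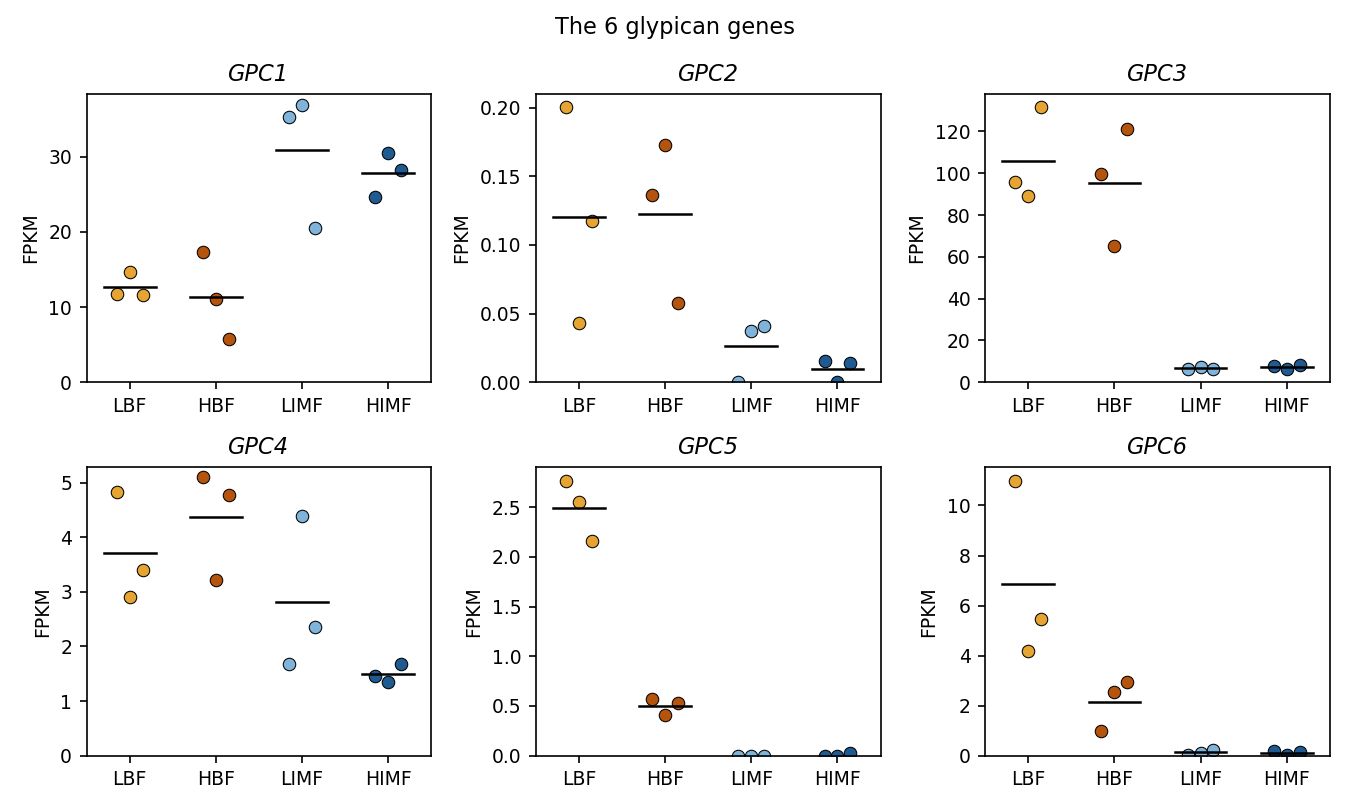
FPKM of the 6 glypican genes in each library on linear axes that start at 0. Points are libraries and bars are group means. GPC5 and GPC6 are lower in HBF than in LBF in every library. GPC6 is at most 0.234 in muscle, where GPC5 is listed at 0 in 5 of 6 libraries. GPC3 is high in all fat libraries, and GPC1 is higher in muscle.

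Of 8 other cell surface and matrix heparan sulfate proteoglycans on the list 7 had a row, and all 7 passed the limits as lower in muscle, beside 47.1% of all genes. HSPG2, which encodes perlecan of basement membranes, stood at 72.6 to 130 FPKM in fat and 11.7 to 22.1 in muscle. SDC2, a syndecan, stood at 52.0 to 79.3 and 3.62 to 6.19. Within back fat SDC3 alone of these separated, with 3.93, 4.88 and 3.65 FPKM in LBF against 5.504, 6.09 and 5.29 in HBF, and 13.9% of all genes were higher in HBF without overlap. Its log2 change was 0.44 (SE 0.17, adjusted p = 0.337 by limma).

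The enzymes that build and edit heparan sulfate chains were counted in the same way. Of 25 tested in back fat, 4 had an unadjusted p under 0.05 as higher in HBF and none as lower, where 9.36% and 4.22% of all genes did. Without overlap, 4 were higher in HBF and 1 lower, FAM20B, at 4.57 to 5.01 FPKM in LBF against 4.19 to 4.36 in HBF, beside 13.9% and 6.46% of all genes. The 4 were the sulfotransferases HS6ST1, HS6ST2 and NDST1, and HPSE, which encodes heparanase. HS6ST1 stood at 6.02, 7.01 and 4.69 FPKM in LBF against 9.09, 8.84 and 8.49 in HBF. It also separated in LD muscle in the same direction, as 7.93% of all genes did, with 18.2, 18.2 and 24.8 in LIMF against 32.2, 49.5 and 38.4 in HIMF. Its log2 changes were 0.59 (SE 0.18, adjusted p = 0.279) and 0.96 (SE 0.23, adjusted p = 0.544) by limma. Between the tissues, 15 of 26 tested passed as lower in muscle and 2 as higher, HS6ST1 by 1.96 (SE 0.14), beside 47.1% and 9.29% of all genes. By median of ratios 9 were lower and 6 higher, and by quantile normalization 5 were lower and 6 higher. With 1 FPKM added in place of 0.1, 8 were lower and 2 higher. The value of HS6ST1 was 2.998, 2.60 and 1.84 under these settings in turn.

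The Hedgehog pathway was described because glypicans bind its ligands. Among its members GLI3, a transcription factor that acts mainly as a repressor of Hedgehog targets, had the back fat change nearest in size to that of GPC5. GLI3 stood at 7.87, 7.36 and 4.79 FPKM in LBF against 1.77, 1.46 and 2.03 in HBF, so that every HBF library was lower. HBF minus LBF was -1.85 (SE 0.24, unadjusted p = 0.000116, adjusted p = 0.154 by limma), which does not pass the limits. In muscle GLI3 had 0.0902 to 0.878 FPKM in 5 libraries and 2.32 in HIMF1.

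HHAT and PTCH1 were also lower in every HBF library. HHAT, the acyltransferase that attaches palmitate to the ligands, stood at 1.88, 2.003 and 2.195 FPKM in LBF against 1.22, 1.19 and 1.47 in HBF. PTCH1, the receptor, stood at 2.81, 3.35 and 3.17 in LBF against 1.60, 2.51 and 2.45 in HBF. Their log2 changes were -0.61 (SE 0.20, adjusted p = 0.296) and -0.51 (SE 0.23, adjusted p = 0.379) by limma. These 3 of 14 tested were lower in HBF without overlap, none was higher without overlap, and 6.46% of all genes were lower without overlap. At an unadjusted p under 0.05, 2 were lower (GLI3 and HHAT) and 1 was higher (DHH), beside 4.22% and 9.36% of all genes.

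SMO, the signal transducer, overlapped between LBF at 4.30 to 6.21 FPKM and HBF at 4.15 to 4.69. The ligand genes were scarce: SHH and IHH were at most 0.0709 FPKM in any library, and DHH reached 0.767 in HBF2. DHH had the reverse direction, with 0.0692, 0.0521 and 0.252 FPKM in LBF against 0.170, 0.767 and 0.592 in HBF, which overlap. Between the tissues, 12 of 14 passed as lower in muscle and 0 as higher, beside 47.1% and 9.29% of all genes. The count depended on the scaling, with 7 lower and 0 higher by median of ratios, and 3 lower and 1 higher (SUFU) by quantile normalization.

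**Figure D4:**
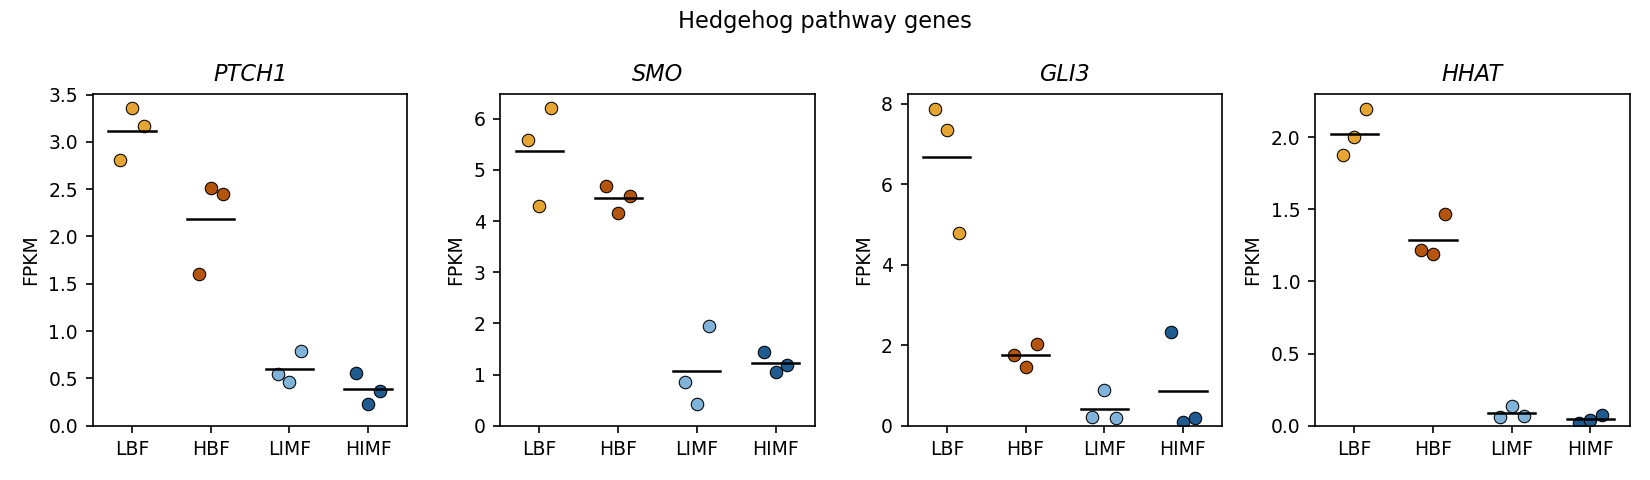
FPKM of PTCH1, SMO, GLI3 and HHAT in each library on linear axes that start at 0. Points are libraries and bars are group means. For PTCH1, GLI3 and HHAT all HBF points lie under all LBF points, and SMO overlaps.

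Among FGF ligands and receptors, 10 of 13 tested passed as lower in muscle and 2 as higher, beside 47.1% and 9.29% of all genes. By median of ratios 8 were lower and 2 higher, by quantile normalization 7 and 2, and with 1 FPKM added in place of 0.1, 8 and 0. FGF10, a growth factor of fat precursor cells, stood at 8.68 to 22.5 FPKM in fat and at most 0.0806 in muscle. KLB, the co-receptor beta-klotho, stood at 18.5 to 29.8 FPKM in fat and 0.168 to 0.648 in muscle. Within back fat FGF18 alone separated, with 4.74, 0.698 and 2.30 FPKM in LBF against 20.2, 4.78 and 9.57 in HBF, beside 13.9% of all genes. The gap was narrow, 4.74 against 4.78, and the log2 change was 2.23 (SE 0.74, adjusted p = 0.301 by limma).

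Turning to the family of KRT80, most keratins with a row were scarce in both tissues, and those without a matched symbol were not looked up. Of 26 type II keratins 18 had a row, 11 of them were listed at 0 in all 12 libraries, and only KRT7, KRT8 and KRT80 passed the minimum for testing. Of 26 type I keratins 16 had a row and 5 were listed at 0 throughout. In the LIMF libraries KRT80 was the most abundant of the type II keratins with a row, and in HBF3 KRT7 was, at 29.3 FPKM.

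KRT7, whose protein is typical of simple epithelia, is the next gene with a row after KRT80, 46730 bases away. It stood at 3.13, 0.331 and 4.20 FPKM in LBF against 0.485, 0.143 and 29.3 in HBF, with overlap. In muscle it stood at 0.0163, 0.421 and 0.0218 FPKM in LIMF, against 0.0151 in HIMF2 and a listed 0 in HIMF1 and HIMF3. The muscle groups thus did not overlap, in the direction of KRT80, but by a margin of 0.0163 against 0.0151. The log2 change was -0.89 (SE 0.59, adjusted p = 0.805 by limma). KRT8, also of simple epithelia, stood at 0.234, 0.703 and 0.809 FPKM in LIMF against 0.287, 0.0593 and 0.136 in HIMF, which overlap. Its log2 change there was -1.35 (SE 0.50, unadjusted p = 0.0265, adjusted p = 0.650 by limma). KRT18, the type I partner of KRT8, stayed at or under 0.172 FPKM in muscle. In back fat its LBF and HBF values overlapped. KRT10, of the suprabasal epidermis, was the most abundant type I keratin with a row, at 1.14 to 2.60 FPKM in fat and 0.633 to 0.895 in muscle.

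**Figure D5:**
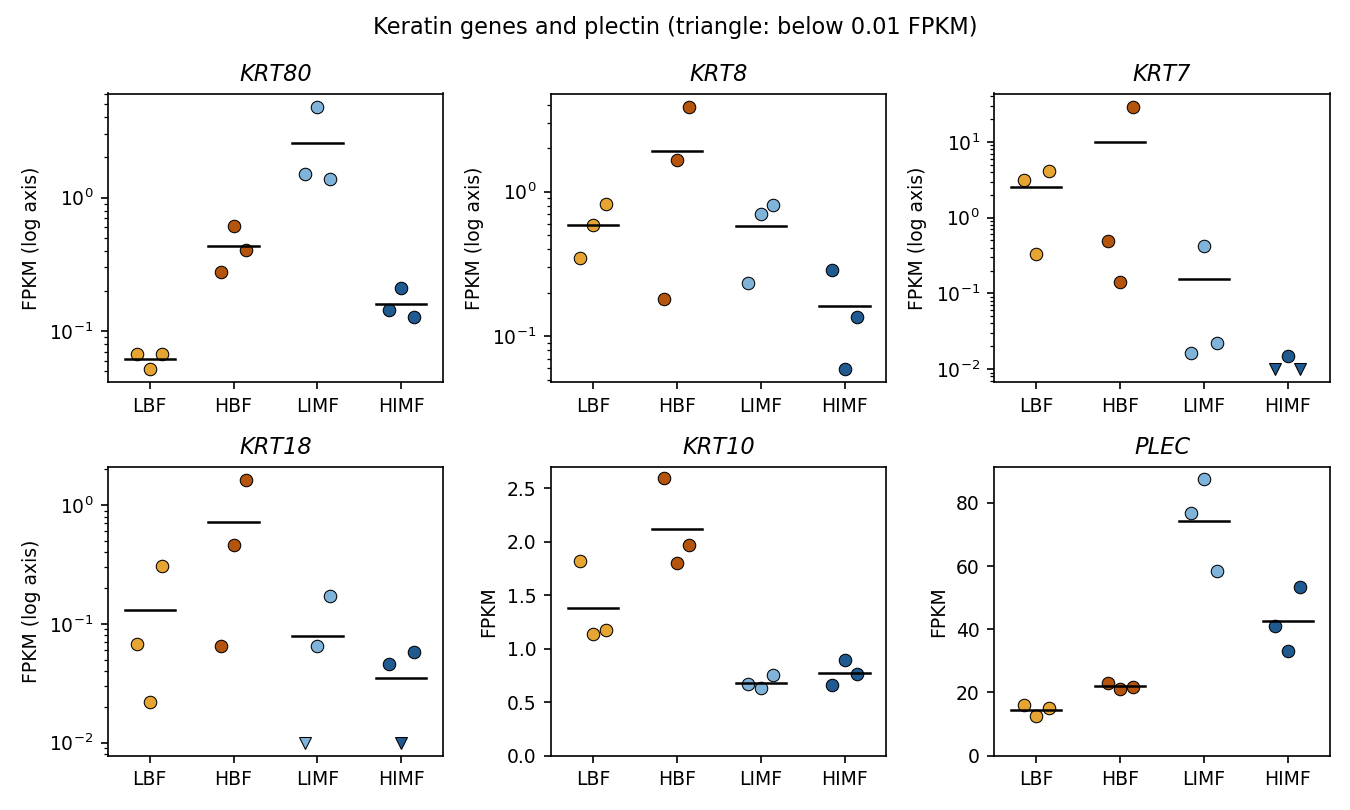
FPKM of KRT80, KRT8, KRT7 and KRT18 (log axes) and of KRT10 and PLEC (linear axes from 0) in each library. Points are libraries, triangles are values under 0.01 and bars are group means of at least 0.01. The 3 libraries of each group lie close together for PLEC and for KRT80 outside LIMF, whereas KRT7 spreads from 0.143 to 29.3 within HBF.

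Among genes of desmosomes and the cornified envelope, PLEC stood apart in the same directions as KRT80. PLEC encodes plectin, a large linker protein that ties intermediate filaments to other structures and is abundant in muscle. It stood at 16.2, 12.5 and 15.04 FPKM in LBF against 23.1, 21.0 and 21.7 in HBF. In muscle it stood at 76.8, 87.6 and 58.3 FPKM in LIMF against 40.9, 33.2 and 53.4 in HIMF. Neither pair of groups overlapped. Lower in HIMF without overlap applied to 4.74% of all genes, higher in HBF to 13.9% and both together to 0.67%. The log2 changes were 0.59 (SE 0.14, unadjusted p = 0.00355) in fat and -0.81 (SE 0.25, unadjusted p = 0.0125) in muscle. The muscle change minus the fat change was -1.40 (SE 0.29, unadjusted p = 0.000397, adjusted p = 0.211 by limma), so this too does not pass the limits.

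Genes of the desmosome proper were given beside it. JUP, which encodes plakoglobin, stood at 21.2 to 33.2 FPKM in LBF against 27.2 to 31.0 in HBF, which overlap. DSP, which encodes desmoplakin, was at most 0.249 FPKM in any library, and the desmosomal cadherins DSG1, DSG3, DSG4 and DSC1 were listed at 0 throughout. Of 11 tested, 3 passed as higher in muscle and 5 as lower, beside 9.29% and 47.1% of all genes, with JUP at -3.38 and PPL, which encodes periplakin, at -3.60 on the log2 scale. The 8 calls became 5 with 1 FPKM added in place of 0.1.

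Other intermediate filament genes were compared with KRT80. NES, which encodes nestin, stood at 6.17, 7.17 and 4.87 FPKM in LBF against 11.2, 12.1 and 11.2 in HBF, a log2 change of 0.93 (SE 0.17, adjusted p = 0.210 by limma). LMNB2, a nuclear lamin, stood at 1.58, 1.49 and 2.50 in LBF against 4.43, 3.21 and 3.64 in HBF. Neither separated in muscle. Of 10 tested in back fat, 3 had an unadjusted p under 0.05 as higher in HBF and none as lower, beside 9.36% and 4.22% of all genes. Without overlap 3 were higher in HBF, NES and LMNB2 among them, and 0 lower, beside 13.9% and 6.46% of all genes. DES, which encodes the muscle filament desmin, was lower in every HIMF library, the only one of 7 tested, beside 4.74% of all genes. It stood at 2044 to 2407 FPKM in LIMF against 1765 to 1911 in HIMF, a much smaller change than that of KRT80.

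The nearest genes with a row on each side of the members were looked at, and genes between them without a row were passed over. Of the 3 genes before KRT80, NR4A1, an early-response nuclear receptor, was higher in every HBF library, as 13.9% of all genes were. It stood at 14.6, 41.5 and 58.0 FPKM in LBF against 120, 72.0 and 63.6 in HBF. ATG101 and ACVR1B overlapped in both tissues. Beyond KRT7, KRT84 was listed at 0 throughout and KRT82 in all libraries but LBF3. On the side of GPC5, SLITRK6 lies 4268730 bases away, and SLITRK5, DCT and TGDS lie 1434954 to 2990148 bases away. SLITRK6 was also higher in every HBF library, as 13.9% of all genes were, and so opposite in direction to GPC5. It stood at 1.34, 2.30 and 0.559 FPKM in LBF against 7.03, 2.84 and 3.61 in HBF. The log2 changes of NR4A1 and SLITRK6 were 1.32 (SE 0.51, adjusted p = 0.334) and 1.70 (SE 0.52, adjusted p = 0.284) by limma. MIR20A was listed at 0, SLITRK5 and DCT stayed under 0.25 FPKM, and TGDS overlapped between LBF and HBF.

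The genes whose pattern was most like that of each member were ranked by Pearson r of log2(FPKM + 0.1) over the 12 libraries among 12666 named genes. These r values are descriptions: the libraries share their groups and tissue, and the pattern itself chose the members. For KRT80 the highest were RRP15 (r = 0.926), RNF115 (0.901), MMP25 (0.886), NAA20 (0.873) and RCAN1 (0.869). RNF115, a ubiquitin ligase, stood at 17.0, 24.8 and 12.3 FPKM in LIMF against 6.31, 7.29 and 8.96 in HIMF, with LIMF2 highest as for KRT80. RCAN1, a regulator of calcineurin, stood at 12.9, 9.57 and 9.81 FPKM in LBF against 17.1, 14.4 and 15.4 in HBF. The lowest were FAM53A (-0.891), ZBED5 (-0.883) and DECR2 (-0.859), the last an enzyme of peroxisomal fatty acid oxidation that stood at 16.5 to 17.5 FPKM in LBF against 10.4 to 12.5 in HBF, and at 2.95 to 6.997 in LIMF against 7.26 to 9.16 in HIMF.

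For GPC5 the highest were FASN (r = 0.986), DLL3 (0.982), AIFM3 (0.979), VPS11 (0.977) and SULT2A1 (0.977). FASN, which encodes fatty acid synthase, stood at 980, 333 and 581 FPKM in LBF, at 65.1, 51.0 and 134 in HBF and at 1.07 to 1.85 in muscle. DLL3, a Notch ligand, was listed at 0 in all 6 muscle libraries and stood at 0.499 to 0.833 FPKM in LBF against 0.268 to 0.335 in HBF. The lowest were SCHIP1 (-0.978), TEAD4 (-0.976) and HSPA4 (-0.970). TEAD4, a transcription factor of the Hippo pathway, stood at 1.23 to 2.57 FPKM in LBF, 3.43 to 4.47 in HBF and 16.8 to 25.1 in muscle.

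Markers of other cell types were set beside these values. Of 10 keratinocyte and skin markers 6 had a row. Their summed level was 1.66 to 4.73 FPKM for LBF and 2.64 to 4.71 for HBF. In LD muscle it was 5.16 to 16.8 with low and 13.1 to 21.0 with high intramuscular fat. In muscle TP63 and PERP made up most of the sum, at 2.51 to 11.8 and 1.34 to 12.03 FPKM. The part of skin cells in the values of KRT80 was not tested. KRT1 was listed at 0 outside HBF, where it was at most 0.0374 FPKM, and DSG3 was listed at 0 throughout.

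Of 10 adipocyte markers 9 had a row, and in muscle ADIPOQ, PLIN1 and LEP were higher in every HIMF library than in every LIMF library, as 7.93% of all genes were. PLIN1, which coats lipid droplets, stood at 0.975, 1.70 and 0.343 FPKM in LIMF against 4.90, 3.67 and 2.71 in HIMF. The median log2 change of the 9 markers in muscle was 0.32, beside 0.038 over all genes. The sum of the adipocyte list, in which the most abundant genes weigh most, overlapped and did not follow this direction. It was 198 to 307 FPKM in LIMF against 162 to 248 in HIMF. The part of fat cells in the muscle difference of KRT80 was not tested.

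Of 10 skeletal muscle markers 5 had a row, and their sum was 197 FPKM in LBF3, 1.30 and 2.35 in the other LBF libraries and 0.603 to 2.01 in HBF. In LBF3 ACTA1 was at 107 FPKM. KRT80 in LBF3 was as low as in LBF1, and without LBF3 the fat change was 1.69 for KRT80 and -2.203 for GPC5. The sums in muscle, 5177 to 22597 FPKM, include the zeros of ACTA1 described above and those of CKM, which was listed at 0 in LIMF2 and LIMF3.

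The Schwann cell, fibroblast, vessel and immune lists overlapped between LBF and HBF in their sums. Fibroblast and adipose progenitor markers summed to 2104 to 6393 FPKM in LBF against 1454 to 3297 in HBF, the direction of GPC5, and had a median log2 change of -0.33. Vessel markers summed to 240 to 412 FPKM in LBF against 408 to 520 in HBF, and the median change was 0.58. Schwann cell markers summed to 77.4 to 105 in LBF against 81.7 to 122.6 in HBF, and immune markers to 48.8 to 109 against 101 to 108. Their part in the fat differences was not tested.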

How the data were processed

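RNA-seq covered 12 libraries in 4 groups of 3 taken from the labels. The authors used HISAT2 for alignment to Sscrofa11.1 and Cufflinks 2.2.1 for quantification, and the deposited table holds FPKM per gene. Their tests with DESeq2 1.25.9 used counts, not analysed here. FPKM scale with the sum of a library, so a few abundant genes move all others. Depth is unknown: of 1285 genes above 0 and under 0.05 FPKM in both LBF1 and LBF2, 39.7% had a ratio within 5% of 1, 2 or 1/2, but transcript lengths were not given, so no interval or floor was set. Of 31910 rows, 7 identifiers filled 2 rows each, and 15027 identifiers matched a symbol. KRT80 is ENSSSCG00000040636 and GPC5 is ENSSSCG00000031946.

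Genes with a mean above 0.05 FPKM were fitted with limma 3.58.1 (R 4.3.3; lmFit, eBayes with trend) on log2(FPKM + 0.1), separately for fat and muscle and over all 12 libraries for the tissue contrasts, with Benjamini-Hochberg adjustment over all genes tested. The tests of KRT80 and GPC5 between tissues are not reported, since the choice of the genes used the same spread. The scripts were tested on simulated data. Members and gene lists were chosen with earlier results of these data known. Genes named were list members that passed limits, were most abundant or did not overlap, the 5 most and 3 least alike by Pearson r, 3 neighbours on each side, and 3 ranked after each member. Alternatives changed the pseudocount, filter, scaling, trend, libraries and replicate block.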

Additional observations from a re-analysis of the deposited data

Results flagged for a closer look

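The high-low change of KRT80 was positive in back fat and negative in LD muscle in every library compared, with a muscle minus fat difference of -4.79 on the log2(FPKM + 0.1) scale. This difference chose the gene and was not tested.

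PLEC moved in opposite directions in the same way, with a difference of -1.40 (unadjusted p = 0.000397, adjusted p = 0.211 by limma). All 3 HBF libraries were above LBF, and all 3 HIMF libraries were below LIMF. PLEC was found by screening all list genes for opposite changes without overlap, and besides KRT80 no other list gene had them. Of all genes, 0.67% were higher in HBF and lower in HIMF without overlap, and 0.438% were the reverse. The cause was not tested.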

How the results depend on the processing

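Adding 1 in place of 0.1 FPKM moved KRT80 to 0.42 in fat, -1.49 in muscle and -1.91 for the difference between tissues, and GPC5 to -1.21 in fat and 1.23 for the difference. Adding 0.01 gave KRT80 2.55 in fat and -6.24 for the difference, and GPC5 2.97 for the difference. The muscle minus fat value of KRT80 was 0.66 with 1 added, under the fold limit. Genes called between tissues were then 5864 against 9009. For the difference between tissues, calls were 1 with 1 added, 1 with 0.01 added, 1 with no filter and 2 without a variance trend, against 0. In muscle 1 gene was called and 1566 had an unadjusted p under 0.05 when all 12 libraries shared a fit, against 0 and 1004. Under a mean above 1 FPKM, KRT80 was not tested in fat or between tissues, nor GPC5 between tissues.

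Scaling moved the split of genes with an unadjusted p under 0.05. The percentage higher in HBF was 68.9, or 49.0 by median of ratios and 47.2 by quantiles. In HIMF it was 64.1, 54.9 and 58.6, and in muscle against fat 19.7, 46.1 and 47.2. The median over all genes between tissues was -0.97, -0.15 and -0.10. GPC5 was then -3.08 and -2.87 and KRT80 2.13 and 2.45 between tissues. KRT8, KRT10, KRT27, GPC4, GLI2, HHIP and SUFU turned from lower to higher in muscle by quantiles, and GPC4, HHIP and SUFU also by median of ratios.

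Leaving out each library in turn gave KRT80 1.43 to 1.89 in fat, -3.43 to -2.57 in muscle, -5.10 to -4.23 for the difference and 1.12 to 1.56 between tissues. GPC5 gave -2.20 to -1.99, 2.11 to 2.33 and -3.64 to -3.53 for fat, the difference and between tissues. Genes called were 0 to 2 in fat, 0 to 5 in muscle, 0 to 118 for the difference (118 without LIMF3) and 8833 to 9008 between tissues, and those with an unadjusted p under 0.05 were 1433 to 2340, 519 to 1983, 1218 to 2565 and 12526 to 12934.

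Same-numbered libraries had correlated deviations of -0.072 to 0.24, and no pair of groups had all 3 above 0.1. Between LBF and LIMF they were 0.126, 0.244 and 0.0557. Differently numbered libraries were not compared, so whether fat and muscle libraries share sows remains unknown. The numbers were not taken as pairing, and the main fits treat the libraries as independent. With the replicate block, 2265 genes in fat and 934 in muscle had an unadjusted p under 0.05, and 9000 were called between tissues.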
